A study of Mus musculus with 12 samples.

Results

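Glutathione synthesis and thioredoxin genes were followed in B16F10 cells, a mouse melanoma line, in all 12 RNA-seq libraries. The set holds 10 genes, listed by name when earlier results of these data were already known, of the 24421 gene symbols in the count tables: Slc7a11, Gclc, Gclm, Gss, Gsr, Gpx1, Txn1, Txnrd1, Prdx1 and Srxn1. All 10 were present under these symbols. All 10 were among the 11638 genes that passed the filter of 1 CPM reached in 3 or more libraries. CPM is the count of a gene relative to the total of its library, which was scaled after the filter for the levels below. There were 4 groups with 3 independent biological repeats each. Control cells received DMSO, the DAC group received DAC (5-aza-2'-deoxycytidine) at 25 nM for 72 h, the SFN group received SFN (sulforaphane) for the last 48 h, and the DAC+SFN group received DAC at 25 nM for 72 h with SFN at 5 µM for the last 48 h. The labels give 5 nM for SFN alone, where the methods of the study give 5 µM for the SFN and the combination groups, so the dose of SFN may differ between these groups by the labels. All groups are the same cell line, and no animal or primary tumor was used.

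Glutathione is a tripeptide thiol made in the cytosol from glutamate, cysteine and glycine, and its supply of cysteine depends largely on the import of cystine. Thioredoxin is a small protein thiol that reduces disulfides and, through peroxiredoxins, peroxides. Both systems draw their electrons from NADPH through a reductase. Several of their genes are known targets of NRF2, a transcription factor that is freed from its inhibitor KEAP1 by electrophiles such as SFN, and DAC is a cytidine analog that inhibits DNA methyltransferases.

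Facts of the libraries that bear on these genes were few. The totals lay between 15880957 and 27291436 counts, and the 10 genes had between 591 and 74954 counts in any library. All 8 melanocyte lineage markers (Mitf, Sox10, Tyr, Tyrp1, Dct, Pmel, Mlana and Slc45a2) passed the filter, with a summed level of 22433 to 31212 CPM, and 0 of 6 keratinocyte and 0 of 4 endothelial markers passed it. Of 6 leukocyte markers, 2 (Cd68 and Lyz2) passed it. The summed level of the leukocyte list was at 4.28 to 5.94 CPM in control cells, 5.38 to 8.74 under DAC, 7.62 to 13.9 under SFN and 10.9 to 16.3 under the combination, so this list moved with the groups. Ptprc, the defining leukocyte gene, was at 0 in all libraries with a drug and at most at 0.0920 CPM (2 counts) in control. Compared to control in edgeR, Cd68 had a log2 fold change of 1.11 with SFN (adjusted p = 0.000729) and 1.55 with DAC+SFN (adjusted p = 1.98e-05). For Lyz2 these were 1.00 (adjusted p = 0.0535) and 1.02 (adjusted p = 0.0289). Of 6 fibroblast markers, 4 passed the filter, and the list followed the replicate number through Col1a1, which was at 72.1, 15.6 and 312 CPM in control replicates 1, 2 and 3. The part of these lists in the results was not tested.

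The 10 genes lie on 6 chromosomes in mm10, and all are annotated as protein coding in GENCODE M21. Slc7a11 (Entrez Gene 26570) is on chromosome 3 from 49892526 to 50443614, on the same chromosome as Gclm (14630), from 122245557 to 122270732. Gclc (14629) is on chromosome 9 from 77754535 to 77794485, and Gpx1 (14775) from 108338903 to 108340343. Gss (14854) is on chromosome 2 from 155563181 to 155592810, and Srxn1 (76650) from 152105516 to 152111376. Txn1 (22166) is on chromosome 4 from 57943373 to 57956411, and Prdx1 (18477) from 116685544 to 116700822. Gsr (14782) is on chromosome 8 from 33652523 to 33698163, and Txnrd1 (50493) on chromosome 10 from 82833951 to 82897712.

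Promoter sequences, from 250 bases before to 50 bases after a transcript start, were found in RefSeq (GRCm38.p6) for 8 of the 10 genes, with 10 promoters in all since Txnrd1 has 3. They were searched on both strands for TGACNNNGC, the core of the antioxidant response element, and for TGACTCA, the AP-1 site, which it can contain. The first motif was in 4 promoters, each of a different gene, and these 4 are shown to place the matches. Slc7a11, Gpx1, Gss and Txn1 had no match in this window and rose with SFN as well. Sequence outside the window was not searched, and Gclc and Gsr had no promoter to search. Whether a match bears on the rise was not tested. The 4 promoters with a match are chr3:122245307-122245606 (plus strand) for Gclm, chr10:82858956-82859255 (plus strand) for the second Txnrd1 promoter, chr2:152105274-152105573 (plus strand) for Srxn1 and chr4:116685349-116685648 (plus strand) for Prdx1. Capitals mark the matches of both motifs, and all 4 matches of TGACNNNGC are on the other strand, so that they read as its reverse complement here.
Gclm: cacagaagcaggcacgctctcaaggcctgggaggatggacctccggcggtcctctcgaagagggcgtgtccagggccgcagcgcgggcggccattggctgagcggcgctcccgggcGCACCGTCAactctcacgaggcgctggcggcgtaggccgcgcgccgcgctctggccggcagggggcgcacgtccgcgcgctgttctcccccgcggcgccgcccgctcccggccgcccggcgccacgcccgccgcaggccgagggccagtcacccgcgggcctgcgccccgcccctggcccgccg
Txnrd1: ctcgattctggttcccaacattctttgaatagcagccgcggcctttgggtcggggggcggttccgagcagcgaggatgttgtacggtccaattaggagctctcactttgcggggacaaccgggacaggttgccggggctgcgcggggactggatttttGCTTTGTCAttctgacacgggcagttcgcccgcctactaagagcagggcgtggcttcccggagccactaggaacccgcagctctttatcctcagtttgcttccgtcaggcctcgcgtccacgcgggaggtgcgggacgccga
Srxn1: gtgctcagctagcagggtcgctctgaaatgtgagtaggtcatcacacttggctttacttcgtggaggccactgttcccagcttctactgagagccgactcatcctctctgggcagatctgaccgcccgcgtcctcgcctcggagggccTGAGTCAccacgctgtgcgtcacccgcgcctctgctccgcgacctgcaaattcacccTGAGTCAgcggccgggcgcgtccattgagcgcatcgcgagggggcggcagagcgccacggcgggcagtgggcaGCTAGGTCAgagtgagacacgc
Prdx1: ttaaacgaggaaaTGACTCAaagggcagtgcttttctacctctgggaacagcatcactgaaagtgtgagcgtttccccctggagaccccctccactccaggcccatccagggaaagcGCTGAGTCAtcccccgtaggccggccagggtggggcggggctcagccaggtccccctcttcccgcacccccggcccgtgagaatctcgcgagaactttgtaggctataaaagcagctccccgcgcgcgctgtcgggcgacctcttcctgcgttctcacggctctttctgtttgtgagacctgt
Counted from the transcript start to the first base of the match, TGACNNNGC was at -134 in Gclm, -92 in Txnrd1, 29 in Srxn1 and -133 in Prdx1. In Prdx1 it overlapped a TGACTCA match at -131, with a further TGACTCA at -237, and Srxn1 had TGACTCA matches at -102 and -45. In all promoters of the reference, 12.4% of 32851 held TGACNNNGC and 5.2% held TGACTCA. Among 11510 promoters of genes tested here, the shares were 14.25% and 3.53%. GGGCGG, the GC box, was in 7 of the 10 promoters, each of a different gene, and in 63.7% of the promoters of genes tested. These matches describe letters in a window and are not binding sites measured here.

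In control cells, the levels of the 10 genes spanned a wide range. Levels of different genes are compared here only as CPM per kilobase of merged exons, as mean ± SD of n = 3. Prdx1, which encodes a peroxiredoxin that reduces peroxides, was highest at 561 ± 30.7, and Txn1, thioredoxin itself, was next at 325 ± 20.2. Then came Txnrd1 at 73.2 ± 11.2, Gpx1 at 69.5 ± 17.3, Srxn1 at 46.4 ± 10.8 and Gsr at 32.6 ± 1.71. The genes of synthesis and import were lowest, with Gclc at 18.5 ± 2.41, Gclm at 9.90 ± 0.815, Slc7a11 at 6.46 ± 0.846 and Gss at 5.88 ± 1.44. Within this order, Txnrd1 and Gpx1, Gpx1 and Srxn1, and Slc7a11 and Gss were neighbors whose difference was within their spread. The lengths are those of all annotated exons, so they are too long for a gene that uses few of them. The merged exons of Gss are 5915 bases, while its transcript searched for near copies is 1963 bases. These lengths are 6291 and 5589 bases for Gclm and 13922 and 9223 bases for Slc7a11. The order of Gss, Gclm and Slc7a11 thus depends on the length used. Reads from 29.3% of the Txn1 transcript and 26.0% of the Prdx1 transcript match a pseudogene (Txn-ps1 for Txn1, Gm21399 and Gm7204 for Prdx1) over 75 bases or more at 95% identity or more, and since the study discarded reads that align to several places, the levels of Txn1 and Prdx1 may be too low.

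With SFN single treatment, all 10 genes rose compared to control. All 10 had a Benjamini-Hochberg adjusted p-value under 0.05 in edgeR's quasi-likelihood test, where 8.27% of all genes tested rose by the same rule. Srxn1, Gclm and Slc7a11 had a fold change above 2, where 1.08% of all genes rose by that rule. The median log2 fold change was 0.62 over the 10 genes and 0.0040 over all genes tested. The 3 SFN libraries did not overlap with the 3 control libraries in 9 of the 10 genes, where 10.9% of all genes tested were higher without overlap, and Gss was the exception. The replicate number was a block in this model. Without the replicate block, only Gclm kept an adjusted p-value under 0.05, and those of the other 9 lay between 0.0559 and 0.335. In that model only 23 of all genes tested (0.198%) passed, and the log2 fold changes of the 10 genes differed from those above by -0.0061 to 0.043. Bulk libraries do not tell apart more transcript per cell and more cells with the transcript.

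**Figure D1:**
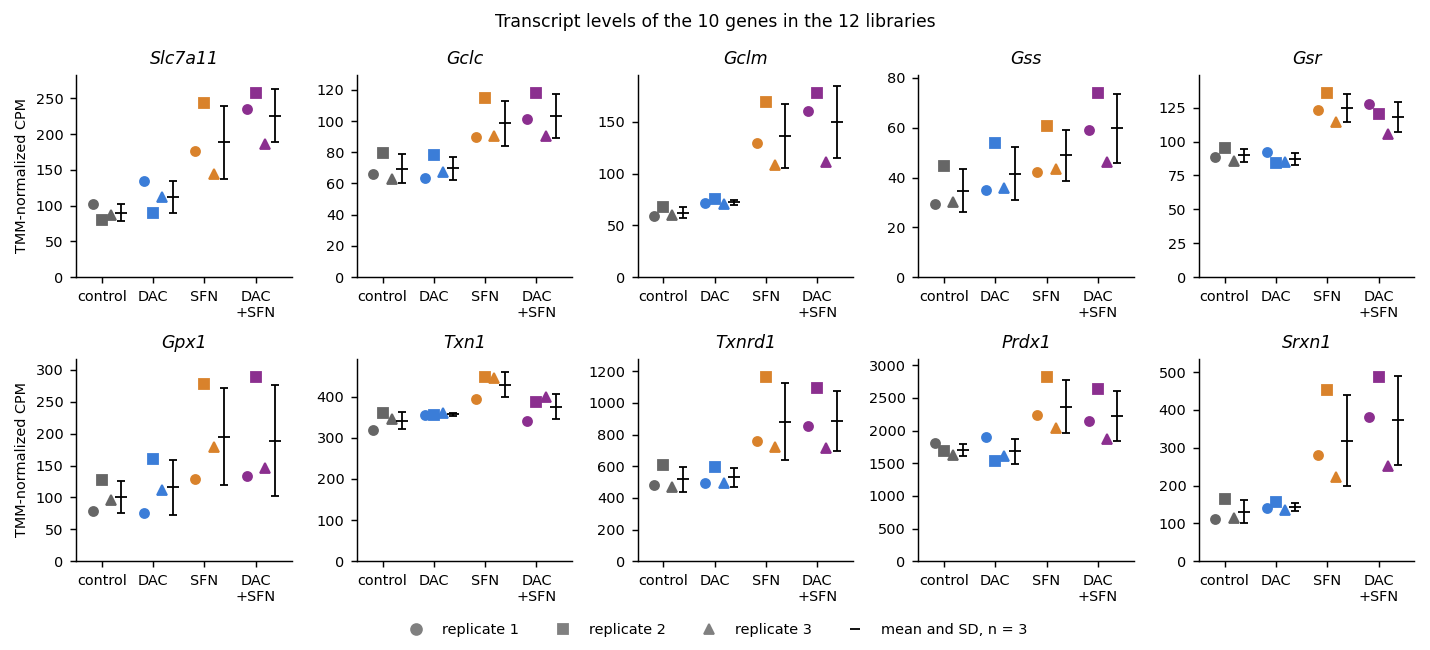
TMM-normalized CPM (y axis, from 0) of each of the 10 genes in the 4 groups (x axis), with a symbol for each replicate and the mean and SD (n = 3) beside it. The SFN and DAC+SFN libraries sit above those of control and DAC for Gclm, from 109 to 178 CPM against 58.8 to 75.0 CPM, while Txn1 with DAC+SFN, at 342 to 398 CPM, overlaps control, at 319 to 361 CPM.

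Slc7a11 encodes the light chain of the transporter that exchanges cystine for glutamate. It was at 103, 79.6 and 87.5 CPM in control replicates 1, 2 and 3, at 135, 89.6 and 112 CPM in the DAC replicates, at 176, 244 and 145 CPM in the SFN replicates and at 235, 258 and 186 CPM in the DAC+SFN replicates. All libraries with SFN were above all libraries without it, and the lowest of the former was SFN replicate 3. Slc7a11 rose with SFN by 1.06 on the log2 scale (SE 0.16, adjusted p = 0.000531), with differences of 0.78, 1.62 and 0.73 in replicates 1, 2 and 3. With the combination treatment the log2 fold change compared to control was 1.32 (SE 0.16, adjusted p = 3.84e-05). Its partner chain Slc3a2 did not pass the test, with means of 312 ± 25.8 CPM in control and 324 ± 39.8 CPM in the SFN group and an estimated log2 difference of 0.050 (95% interval -0.11 to 0.21, adjusted p = 0.704). Per kilobase, the ratio of Slc7a11 to Slc3a2 within a library was 0.0668 to 0.0765 in control cells, 0.0681 to 0.0969 under DAC, 0.128 to 0.179 under SFN and 0.147 to 0.171 under the combination.

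Gclc and Gclm encode the catalytic and the modifier subunit of glutamate-cysteine ligase, which catalyzes the rate-limiting step of glutathione synthesis. Gclm was at 58.8, 68.1 and 59.8 CPM in control replicates 1, 2 and 3, at 71.3, 75.0 and 70.8 CPM in the DAC replicates, at 129.9, 169 and 109 CPM in the SFN replicates and at 161, 178 and 111 CPM in the DAC+SFN replicates. Replicate 3 had the lowest value among the libraries with SFN, and the libraries with SFN did not overlap with those without it. Gclm rose by 1.11 on the log2 scale with SFN (SE 0.10, adjusted p = 1.45e-05) and by 1.25 with DAC+SFN (SE 0.10, adjusted p = 2.08e-06). Gclc lay between 62.7 and 79.8 CPM in control cells, 63.7 and 78.0 CPM in the DAC replicates, 90.0 and 115 CPM in the SFN replicates and 90.5 and 118 CPM in the DAC+SFN replicates. It rose by 0.50 with SFN (SE 0.059, adjusted p = 7.34e-05) and by 0.57 with DAC+SFN (SE 0.059, adjusted p = 1.06e-05). The modifier subunit thus changed by more than the catalytic subunit within the same libraries. Per kilobase, the ratio of Gclm to Gclc was 0.532, 0.511 and 0.572 in control cells, 0.671, 0.576 and 0.627 under DAC, 0.864, 0.882 and 0.719 under SFN and 0.950, 0.902 and 0.737 under the combination. The ratios with SFN did not overlap with those of control or DAC. The Gclm exons overlap Gm6061 on the same strand and Gm17494 on the other strand.

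Gss encodes glutathione synthetase, which adds glycine in the last step. It was at 29.4, 44.6 and 30.4 CPM in control replicates 1, 2 and 3, at 34.9, 53.7 and 35.9 CPM in the DAC replicates, at 42.4, 60.9 and 43.4 CPM in the SFN replicates and at 58.9, 74.0 and 46.3 CPM in the DAC+SFN replicates. Replicate 2 was the highest in every group, so that SFN replicates 1 and 3 lay below control replicate 2. Within a replicate number the order was the same throughout, and Gss rose by 0.50 with SFN (SE 0.079, adjusted p = 0.000833) and by 0.78 with DAC+SFN (SE 0.079, adjusted p = 8.50e-06). The replicate number held 43.0% of the sum of squares of its log2 CPM values and the condition 53.7%, against medians of 31.2% and 33.8% over all genes tested. Exons of Gss overlap those of Acss2 on the other strand. The libraries were made with a stranded kit, but the strand setting of the counting is not given in the sources used here. Without it, reads from the shared stretches cannot be assigned to either gene. Acss2, Gssos1 and Gssos2 together match 14.2% of the Gss transcript over 75 bases or more at 95% identity or more. Acss2 fell by 0.43 with SFN (adjusted p = 0.0111), from 22.1 ± 3.75 to 16.4 ± 2.13 CPM.

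Gsr encodes glutathione reductase, which returns oxidized glutathione to its reduced form, and Gpx1 a selenium-dependent glutathione peroxidase. Gsr lay between 85.8 and 95.04 CPM in control cells, 84.2 and 92.0 CPM in the DAC replicates, 115 and 136 CPM in the SFN replicates and 106 and 128 CPM in the DAC+SFN replicates. It rose by 0.47 with SFN (SE 0.064, adjusted p = 0.000264) and by 0.39 with DAC+SFN (SE 0.064, adjusted p = 0.000458). Gpx1 was at 78.1, 127 and 95.2 CPM in control replicates 1, 2 and 3, at 75.1, 159.6 and 112 CPM in the DAC replicates, at 128, 278 and 179 CPM in the SFN replicates and at 133, 289 and 146 CPM in the DAC+SFN replicates. Its replicate 2 was the highest in every group, by a wide margin with SFN, and SFN replicate 1 lay just above the highest control. Gpx1 rose by 0.92 with SFN (SE 0.094, adjusted p = 2.33e-05) and by 0.86 with DAC+SFN (SE 0.094, adjusted p = 1.72e-05). The replicate number held 49.4% of its sum of squares and the condition 47.2%. Without the replicate block, the Gpx1 increase was 0.96 with SFN (adjusted p = 0.243) and 0.92 with DAC+SFN (adjusted p = 0.118).

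Txn1 encodes cytosolic thioredoxin, and Txnrd1 the selenium-containing reductase that keeps it reduced. Txnrd1 was at 480, 610.2 and 466 CPM in control replicates 1, 2 and 3, at 497, 598 and 496 CPM in the DAC replicates, at 758, 1164 and 724 CPM in the SFN replicates and at 852, 1093 and 715 CPM in the DAC+SFN replicates. All libraries with SFN were above all without it, and replicate 2 was the highest of each group. Txnrd1 rose by 0.74 with SFN (SE 0.074, adjusted p = 1.87e-05) and by 0.76 with DAC+SFN (SE 0.075, adjusted p = 7.04e-06). Txn1 was at 319, 361 and 345 CPM in control, at 355, 355 and 360 CPM in the DAC replicates, at 393, 448 and 444 CPM in the SFN replicates and at 342, 387 and 398 CPM in the DAC+SFN replicates. It was above control in all SFN libraries, while the DAC+SFN libraries overlapped with control and DAC. Txn1 rose by 0.33 with SFN (SE 0.054, adjusted p = 0.00115), and with DAC+SFN its log2 fold change of 0.14 did not pass the test (SE 0.054, adjusted p = 0.0682). Per kilobase, the ratio of Txnrd1 to Txn1 was 0.201 to 0.251 in control cells, 0.204 to 0.250 under DAC, 0.242 to 0.386 under SFN and 0.266 to 0.419 under the combination. The SFN and control ratios overlapped, while those of the combination lay above control without overlap. Within replicates 1, 2 and 3, the ratio was 0.286, 0.386 and 0.242 with SFN against 0.223, 0.251 and 0.201 in control.

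Prdx1 encodes a peroxiredoxin, and Srxn1 the sulfiredoxin that repairs peroxiredoxins after overoxidation. Srxn1 was at 111, 166 and 115 CPM in control replicates 1, 2 and 3, at 139.5, 156 and 136 CPM in the DAC replicates, at 280, 453 and 221 CPM in the SFN replicates and at 381, 487 and 252 CPM in the DAC+SFN replicates. The lowest library with SFN was above the highest without it. Srxn1 had the largest log2 fold change of the 10 genes in both comparisons, 1.25 with SFN (SE 0.13, adjusted p = 2.09e-05) and 1.49 with DAC+SFN (SE 0.13, adjusted p = 2.44e-06). Prdx1 lay between 1623 and 1808 CPM in control cells, 1540 and 1899 CPM in the DAC replicates, 2037 and 2821 CPM in the SFN replicates and 1878 and 2630 CPM in the DAC+SFN replicates. It rose by 0.46 with SFN (SE 0.10, adjusted p = 0.00779) and by 0.37 with DAC+SFN (SE 0.10, adjusted p = 0.0135), and its differences from control were 0.31, 0.74 and 0.33 in SFN replicates 1, 2 and 3. Prdx1 lost its call under more alternatives than any of the other 9 genes. With control replicate 2 or SFN replicate 2 left out, its adjusted p-value with SFN was 0.0616 and 0.0695. The estimates were then 0.39 and 0.34. With DAC+SFN the adjusted p-value was 0.0869 without control replicate 2, 0.0989 without DAC+SFN replicate 2 and 0.0581 in DESeq2. Per kilobase, the ratio of Srxn1 to Prdx1 was 0.0664 to 0.106 in control cells, 0.0793 to 0.109 under DAC, 0.117 to 0.173 under SFN and 0.145 to 0.1998 under the combination.

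**Figure D2:**
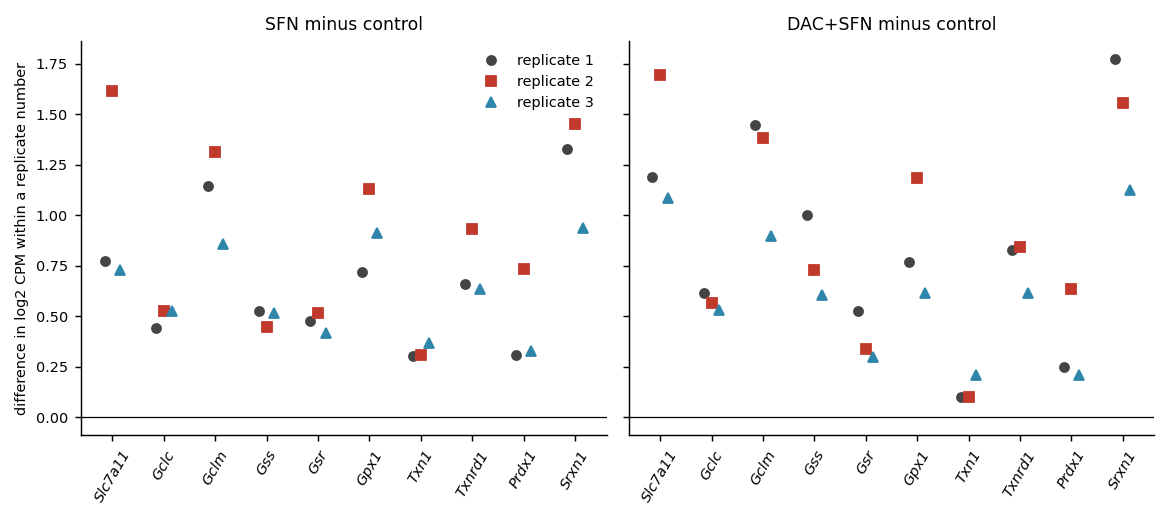
Difference in log2 CPM from control within a replicate number (y axis) for the 10 genes (x axis), for SFN (left) and DAC+SFN (right), with a symbol for each replicate. Every difference is above 0, and those of Slc7a11 with SFN run from 0.73 to 1.62 while those of Gsr run from 0.42 to 0.51.

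The combined share of these genes moved with SFN as well. They held 0.314% ± 0.0137 of all counts in control cells, 0.324% ± 0.0142 under DAC, 0.474% ± 0.0869 under SFN and 0.469% ± 0.0758 under the combination (SD, n = 3). The lowest library with SFN, at 0.405%, was above the highest without it, at 0.340%. SFN replicate 2 had the highest share, at 0.573%. The share gives the most weight to Prdx1, with 39300 of the 68308 counts in control replicate 1 and 74954 of the 156491 counts in SFN replicate 2.

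With DAC single treatment, 0 of the 10 genes passed the test in edgeR, where 0.180% of all genes tested did. DESeq2 also gave 0, and 2 genes had an unadjusted p-value under 0.05 in edgeR, Gss (0.00639) and Gclm (0.0460), where 10.1% of all genes tested did. The estimates were small, from -0.044 for Gsr to 0.33 for Slc7a11, with 8 above and 2 below 0. With samples left out, that of Slc7a11 ran from 0.19 to 0.53. The interval of Slc7a11 was the widest, from -0.012 to 0.66, and that of Gss ran from 0.083 to 0.42. The DAC libraries lay above the control libraries without overlap in 1 gene, Gclm, at 70.8 to 75.0 against 58.8 to 68.1 CPM, where 4.09% of all genes tested did so. When the model held only the control and DAC samples, 3 genes passed, with log2 fold changes of 0.22 for Gclm (adjusted p = 0.0117), 0.26 for Gss (adjusted p = 0.0161) and 0.31 for Slc7a11 (adjusted p = 0.000690), and 663 of all genes tested (5.82%) passed.

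**Figure D3:**
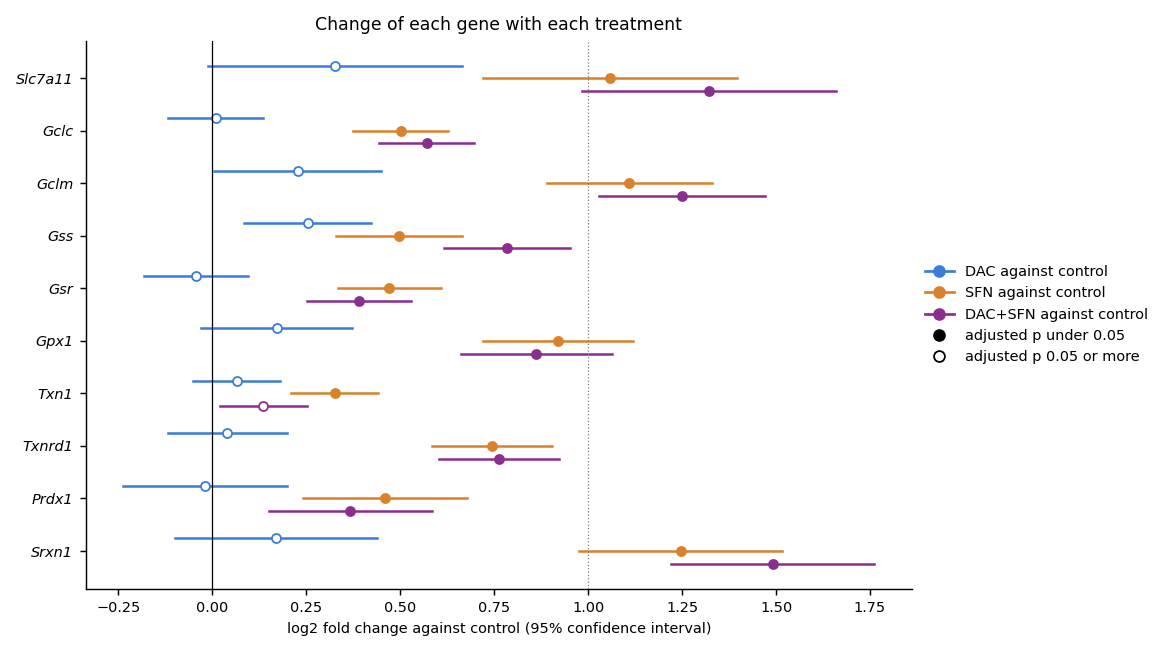
Log2 fold change against control (x axis, with its 95% confidence interval as a line) of the 10 genes (y axis) with DAC, SFN and DAC+SFN, where filled points have an adjusted p-value under 0.05 and the dotted line marks a fold change of 2. The DAC points stay between -0.044 and 0.33, and those of SFN run from 0.33 for Txn1 to 1.25 for Srxn1.

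With the combination treatment, 9 of the 10 genes rose compared to control, where 17.0% of all genes tested rose. Txn1 was the exception. The median log2 fold change was 0.77 over the 10 genes and 0.0078 over all genes tested. The DAC+SFN libraries were higher than control without overlap in 9 genes, where 15.1% of all genes tested were. Srxn1, Gclm and Slc7a11 again had a fold change above 2, where 2.33% of all genes rose by that rule. Without the replicate block, 7 genes kept their call, and Prdx1 (log2 fold change 0.38, adjusted p = 0.101) and Gpx1 (0.92, adjusted p = 0.118) lost it, where 1201 of all genes tested (10.3%) passed. This comparison and that of SFN share the control samples.

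SFN was also added on top of DAC. Compared to DAC single treatment, 9 of the 10 genes rose with DAC+SFN, where 9.55% of all genes tested rose, and Txn1 did not pass the test (log2 fold change 0.071, 95% interval -0.044 to 0.19, adjusted p = 0.406). Without the replicate block, only Gclm kept its call, and the adjusted p-values of the other 8 lay between 0.0800 and 0.339, where 20 of all genes tested (0.172%) passed. Their log2 fold changes differed from those with the block by -0.00095 to 0.054 over the 10 genes. Srxn1 rose by 1.32 (SE 0.13, adjusted p = 2.88e-05), Gclm by 1.02 (SE 0.10, adjusted p = 3.59e-05) and Slc7a11 by 0.99 (SE 0.16, adjusted p = 0.000894). The libraries of DAC+SFN and DAC did not overlap in 6 genes, where 9.19% of all genes tested were higher without overlap. The increase of Prdx1 by 0.39 (adjusted p = 0.0196) lost its call without DAC replicate 2 (log2 fold change 0.24, adjusted p = 0.123), without DAC+SFN replicate 2 (adjusted p = 0.111), without all libraries of replicate 1 (0.49, adjusted p = 0.0886), with only the samples compared (0.38, adjusted p = 0.0544) and in DESeq2 (adjusted p = 0.0704).

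**Figure D4:**
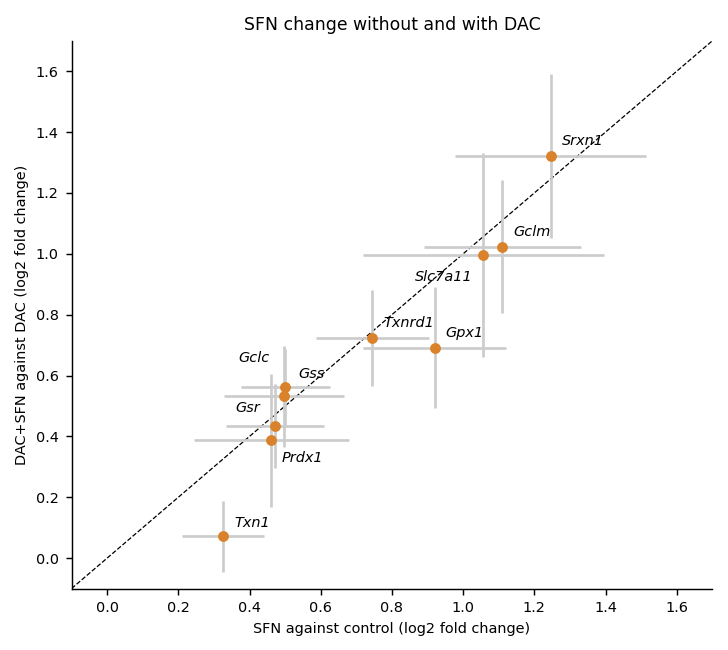
Log2 fold change of each gene with SFN against control (x axis) and with DAC+SFN against DAC (y axis), comparisons that share no library, with 95% confidence intervals in gray and a dashed line where both are equal. Srxn1 is at 1.25 and 1.32, and Txn1 lies farthest below the line, at 0.33 and 0.071.

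Whether the change with SFN depended on DAC was tested with the interaction of both drugs. It gave 0 of 10 genes at an adjusted p-value under 0.05 in edgeR and 0 in DESeq2, and 0% of all genes tested were called. Before adjustment, edgeR gave a p-value under 0.05 for 1 of the 10 genes, Txn1 (0.00470), and for 683 of all genes. Txn1 had an interaction of -0.25 on the log2 scale (95% interval -0.42 to -0.091, adjusted p = 0.847). For Gpx1 it was -0.23 (interval -0.51 to 0.053). The intervals of the other 8 genes covered 0 and lay between -0.53, the lower bound of Slc7a11, and 0.45, the upper bound of Srxn1, which is how precisely the interaction could be estimated for them.

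When the combination treatment was compared to SFN single treatment, 0 of the 10 genes passed the test in edgeR, where 1.61% of all genes tested did, and 6 estimates were above and 4 below 0. Before adjustment, edgeR gave p-values under 0.05 for Gss (0.00201) and Txn1 (0.00324), which had opposite signs, and for 17.8% of all genes tested, so that 2 of 10 was near the share over all genes. Gss was higher with DAC+SFN by 0.29 (95% interval 0.12 to 0.45, adjusted p = 0.0692), and Txn1 was lower, at -0.19 (95% interval -0.30 to -0.074, adjusted p = 0.0823). In DESeq2 these 2 genes passed, with adjusted p-values of 0.0384 for Gss and 0.0468 for Txn1, and they also passed without DAC+SFN replicate 3, with 0.0113 and 0.0407. The calls over all genes rose from 187 to 404 in DESeq2 and to 703 without that library. The differences of Gss in replicates 1, 2 and 3 were 0.47, 0.28 and 0.093, and those of Txn1 were -0.20, -0.21 and -0.16. With only the SFN and DAC+SFN samples in the model, Slc7a11 and Srxn1 passed too, with log2 differences of 0.28 (adjusted p = 0.00255) and 0.24 (adjusted p = 0.00584), and so did 1267 of all genes tested (11.1%). The labelled SFN doses of these groups are not the same.

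Over the 12 libraries, with the mean of each replicate number removed, the 10 genes varied in parallel. The Pearson correlation of log2 CPM was above 0.9 in 26 of 45 pairs, with a median of 0.914, and below 0 in 0 pairs. It was highest for Gclm and Srxn1 (0.996) and lowest for Gss and Txn1 (0.501). The points share libraries and the same 4 groups, so these values mostly describe the difference between libraries with and without SFN. Txn1 followed the mean of the 10 genes least, at 0.739, and Gclm most, at 0.996. Each of the 10 genes is part of this mean, which raises its correlation, while genes outside the set are not. Of the genes outside the set, the 8 with the highest correlation with this mean were Ccdc37 (0.993), G6pdx (0.993), Aox1 (0.990), Psap (0.989), Cryab (0.989), Adh7 (0.989), Gsta3 (0.988) and Mmgt2 (0.988). G6pdx, which encodes the first enzyme of the pentose phosphate pathway, averaged 168 ± 30.9 CPM in control cells, 168 ± 15.2 CPM under DAC, 304 ± 85.7 CPM under SFN and 317 ± 78.8 CPM under the combination. Psap had a smaller change, a log2 fold change of 0.27 with SFN.

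Other genes of glutathione and thioredoxin metabolism were taken from a list of 46, of which 44 were in the count tables and 39 were tested. With SFN, 12 of the 39 rose and 3 fell, where 8.27% and 5.65% of all genes tested did, and 24 did not pass. These 15 calls became 7 without SFN replicate 2 and 9 without control replicate 1 or control replicate 2. Over all genes tested, the share called fell from 13.9% to 6.25%, 7.48% and 6.58% in these fits. Their median log2 fold change was 0.12, against 0.62 for the 10 genes above. With the combination treatment 15 rose and 6 fell, where 17.0% and 14.7% of all genes did, and the median was 0.18. These 21 calls became 13 without control replicate 2, where the share called over all genes tested fell from 31.6% to 20.1%. With DAC, 0 of 39 passed in edgeR and 1 (Sesn2) in DESeq2, and 7 had an unadjusted p-value under 0.05. Over all genes tested these were 0.180% in edgeR, 0.713% in DESeq2 and 10.1% before adjustment. Without the replicate block, 0 of the 39 passed with SFN and 7 with DAC+SFN, where 0.198% and 10.3% of all genes did.

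**Figure D5:**
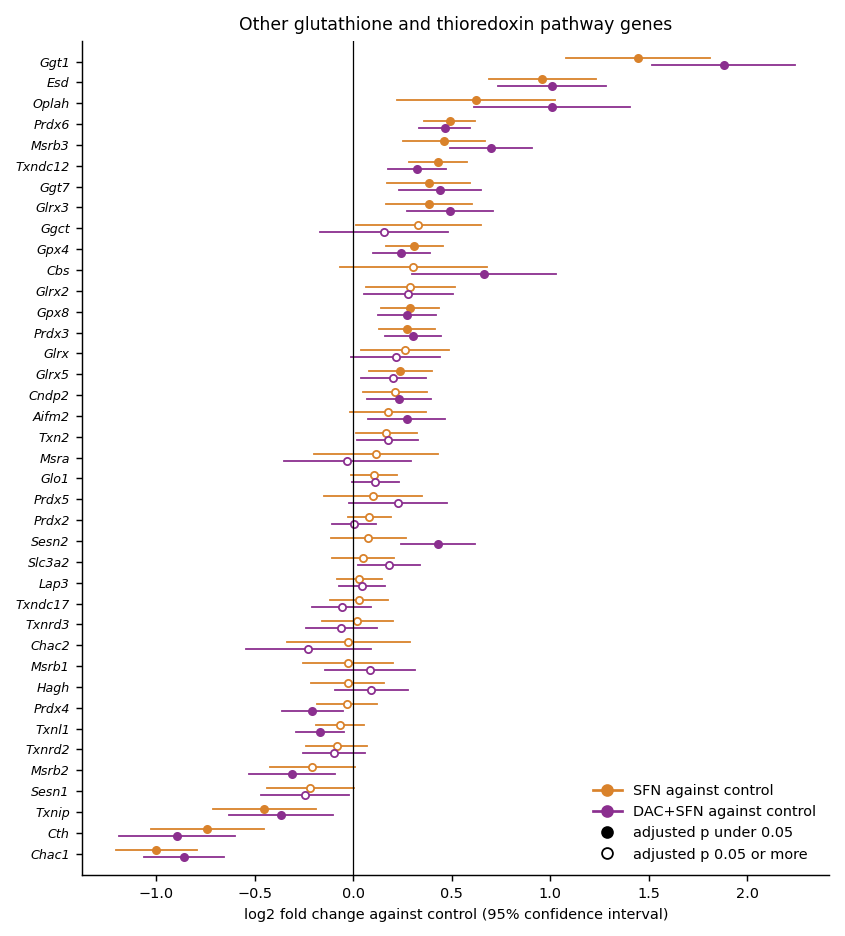
Log2 fold change against control (x axis, with its 95% confidence interval as a line) of the 39 other pathway genes tested (y axis, ordered by the SFN estimate), with SFN and DAC+SFN, where filled points have an adjusted p-value under 0.05. Ggt1 is at the top, at 1.45 and 1.88, and Chac1 at the bottom, at -0.998 and -0.857.

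Among the genes that handle glutathione after its synthesis, Ggt1 and Chac1 moved in opposite directions. Ggt1 encodes gamma-glutamyltransferase, which cleaves glutathione outside the cell. It was at 10.4, 15.1 and 12.02 CPM in control replicates 1, 2 and 3, at 15.7, 21.7 and 16.7 CPM in the DAC replicates, at 30.2, 53.4 and 22.4 CPM in the SFN replicates and at 47.2, 67.6 and 27.8 CPM in the DAC+SFN replicates. It rose by 1.45 with SFN (SE 0.17, adjusted p = 8.06e-05) and by 1.88 with DAC+SFN (SE 0.17, adjusted p = 3.78e-06), and all libraries with SFN were above those without it. Chac1, which encodes a cytosolic enzyme that degrades glutathione, was at 46.7, 38.2 and 37.0 CPM in control, at 43.7, 36.1 and 42.1 CPM in the DAC replicates, at 26.6, 16.3 and 19.0 CPM in the SFN replicates and at 26.7, 18.2 and 22.9 CPM in the DAC+SFN replicates. Chac1 fell by 0.998 on the log2 scale with SFN (SE 0.096, adjusted p = 1.69e-05) and by 0.86 with DAC+SFN (SE 0.096, adjusted p = 2.08e-05), without overlap. Esd, which encodes S-formylglutathione hydrolase, rose from 104 ± 5.87 to 207 ± 67.8 CPM with SFN, or by 0.96 on the log2 scale (SE 0.13, adjusted p = 0.000202).

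Cth encodes cystathionine gamma-lyase, which makes cysteine from cystathionine, and so it supplies cysteine by another route than the import through Slc7a11. It was at 31.4, 20.1 and 27.6 CPM in control replicates 1, 2 and 3 and at 16.3, 12.3 and 18.8 CPM with SFN, a fall in each replicate. Cth fell by 0.74 with SFN (SE 0.13, adjusted p = 0.00216) and by 0.89 with DAC+SFN (SE 0.14, adjusted p = 0.000259). Prdx6, which encodes a peroxiredoxin that is reduced by glutathione, rose from 270 ± 30.3 to 383 ± 82.2 CPM with SFN, or by 0.49 on the log2 scale (SE 0.061, adjusted p = 0.000109). Txndc12, which encodes a thioredoxin-like protein of the endoplasmic reticulum, rose by 0.43 with SFN (SE 0.069, adjusted p = 0.000865), and Msrb3, a methionine sulfoxide reductase gene, by 0.70 with DAC+SFN (SE 0.097, adjusted p = 0.000121). Txnip, which encodes the protein that binds and inhibits thioredoxin, was at 43.6, 39.3 and 68.5 CPM in control and at 29.1, 36.9 and 43.8 CPM with SFN. The groups overlapped, and Txnip fell by 0.45 with SFN (SE 0.12, adjusted p = 0.0239) and by 0.37 with DAC+SFN (SE 0.12, adjusted p = 0.0345), although DAC+SFN replicate 2 was 0.19 above control replicate 2. The call of Txnip with SFN held in 1 of 6 fits with a library left out (without control replicate 2). Its adjusted p-value was 0.130 without control replicate 1, 0.0987 without control replicate 3 and 0.0798, 0.0532 and 0.112 without SFN replicates 1, 2 and 3. The log2 fold change lay between -0.50 and -0.36 in the fits that lost the call. With DAC+SFN the call held in 2 of 6, without control replicate 2 or DAC+SFN replicate 2. In the other fits the log2 fold change lay between -0.30 and -0.25.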

How the data were processed

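The authors deposited raw read counts per gene symbol for each of the 12 libraries. Per the submitters' processing notes and the methods, reads were trimmed with Trimmomatic 0.38, aligned to mm10 with TopHat 2.1.1 and counted with htseq, and multimapped reads were discarded. The strand setting and the annotation are not given in the sources used here. Genes reaching 1 CPM in 3 or more libraries were scaled by TMM and tested with glmQLFTest in edgeR 4.0.16 (R 4.3.3, legacy fit). The model held all 12 samples and a block for the replicate number, since the methods correct for a batch and the labels give no other grouping. Library numbers follow the replicate number, so a library batch and the replicate cannot be told apart. Same-numbered samples of different groups deviated together (correlation 0.544 on average, 0.270 to 0.732 over 18 pairs). Replicates were not copies of each other (chi-square per gene 13.6 to 37.5). Standard errors were derived from the F statistic. Log2 differences within a replicate number used a prior count of 2. At these totals, 1 CPM stands for 16 to 27 counts. Alternatives were DESeq2 1.42.0 (size factors and Wald test), the version 4 fit, no filter, no replicate block, only the samples compared, and samples left out. Scripts were tested on simulated data. Near copies were sought with BLAST+ 2.17.0. The genes and lists were chosen with earlier results of these data known. Named were the 10 genes, up to 6 called genes of the list with the smallest adjusted p-values per treatment, Txnip and Slc3a2, and the 8 genes most alike. Others, such as Acss2 and Sesn2, were named after their values were seen.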

Additional observations from a re-analysis of the deposited data

How the results depend on the processing

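The estimates of the 10 genes stayed above 0 under every alternative in the comparisons of SFN and DAC+SFN with control and of DAC+SFN with DAC, Txn1 included, which was not called in the latter 2 comparisons. Calls with SFN, with DAC+SFN and for DAC+SFN against DAC depended mainly on the block. For DAC against control and DAC+SFN against SFN, the 10 genes had 0 calls with and without it. Without the replicate block, the 10 genes had 1 call with SFN and 1 with DAC+SFN against DAC (Gclm in both), and the other pathway genes had 0, 7 and 0 calls with SFN, with DAC+SFN and with DAC+SFN against DAC. For DAC against control, a fit of only the samples compared gave 3 of the 10 genes and 4 of the others, and the others had 1 call in DESeq2 and 2 without the filter. The calls over all genes rose from 21 to 663, 83 and 169 in these fits. For DAC+SFN against SFN, the 10 genes had 2 calls in DESeq2, 1 without the filter and 4 with only the samples compared, and the others 1, 2 and 2, while the calls over all genes rose from 187 to 404, 486 and 1267. The cause of these differences was not tested. With samples left out, calls among the 10 genes lay between 0 and 2 for DAC+SFN against SFN. Those among the other pathway genes lay between 7 and 13 with SFN, against 15 in all samples (9 without control replicate 1 or 2, 7 without SFN replicate 2). They lay between 0 and 1 with DAC (1 without DAC replicate 1) and 11 and 23 with DAC+SFN (13 without control replicate 2). For DAC+SFN they lay between 5 and 13 against DAC and 0 and 2 against SFN (2 without DAC+SFN replicate 3). Over all genes tested, the calls in such fits lay between 429 and 1799 with SFN, 0 and 28 with DAC and 1471 and 4199 with DAC+SFN. They lay between 245 and 2402 for DAC+SFN against DAC and 0 and 703 for DAC+SFN against SFN.

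Leaving out all 4 libraries of a replicate number was chosen after seeing the data. The Prdx1 estimate then moved to 0.22 with DAC+SFN and 0.19 for DAC+SFN against DAC without replicate 2 (adjusted p = 0.0294 and 0.0781), and without replicate 1 to 0.43 and 0.49 (adjusted p = 0.0608 and 0.0886), which ended both calls. The sign changed with samples left out only for small estimates that were not called. These ranges were, for DAC against control, -0.047 to 0.040 for Gclc, -0.093 to 0.019 for Gsr, -0.031 to 0.11 for Txnrd1 and -0.11 to 0.12 for Prdx1. For DAC+SFN against SFN they were -0.056 to 0.11 for Txnrd1, -0.20 to 0.020 for Prdx1 and -0.16 to 0.062 for Gpx1. For the interaction they were -0.020 to 0.15 for Gclc, -0.18 to 0.032 for Gclm, -0.074 to 0.12 for Gss, -0.096 to 0.020 for Gsr, -0.25 to 0.22 for Slc7a11, -0.095 to 0.079 for Txnrd1, -0.077 to 0.23 for Srxn1 and -0.21 to 0.048 for Prdx1. The fit of only the samples compared could not be made for the interaction, which needs all 4 groups. The other scaling and the version 4 fit of edgeR changed no call among the 10 genes.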
